A study of Mus musculus with 18 samples.

Results

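The leukocyte integrins measured here were the 8 genes Itgb2, Itgal, Itgam, Itgax, Itgad, Itgb7, Itgae and Itga4. They were taken by gene symbol from a table of 25124 genes for each fat depot, and all 8 were found in every table and had enough reads to be tested in every comparison. RNA was sequenced from inguinal white (iWAT), epididymal white (eWAT) and brown (BAT) adipose tissue of WT mice and of mice lacking caspase-6 in the whole body (C6KO), as 18 libraries, 3 for each genotype in each depot. The mice were males on a C57BL/6J background and had been fed a 60% high fat diet (HFD) for 12 weeks, so no chow-fed group enters any comparison. The C6KO line is a global deletion, so that fat cells, leukocytes and every other cell of the depot lack the gene, and WT and C6KO mice were bred from heterozygous parents. Feeding was started at an age of 10 to 14 weeks, a range that covers all feeding cohorts, and the age of the animals behind each library is not analysed here.

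Integrins are adhesion receptors built of 1 α and 1 β chain, and leukocytes carry their own set. The β2 chain, encoded by Itgb2, pairs with αL (Itgal), αM (Itgam, CD11b), αX (Itgax, CD11c) or αD (Itgad), and these receptors hold leukocytes to endothelium through the ICAM proteins, take up complement-coated particles and bind fibrinogen. The β7 chain, encoded by Itgb7, pairs with α4 (Itga4), which binds MAdCAM-1, or with αE (Itgae, CD103), which binds E-cadherin, and α4 also pairs with β1 to bind VCAM-1. In obese fat, CD11b marks myeloid cells and CD11c marks the macrophages that gather around dying fat cells. The samples were whole tissue, in which fewer cells of a type and less RNA per cell cannot be told apart.

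Each library held 16506034 to 19139694 counted reads in the white depots and 7803108 to 12428683 in BAT. Casp6, the deleted gene, stood at 16.1 to 23.1 CPM (counts scaled to the library's normalized total) in the WT libraries of the white depots and at 4.29 to 7.98 CPM in the C6KO ones, and in BAT at 11.2 to 18.7 against 3.08 to 6.91 CPM, so every C6KO library lay below every WT library of its depot, with reads remaining. Both white depots and BAT held every measured marker of the adipocyte, macrophage, T cell and B cell lists. A pair of libraries stood apart. In iWAT, C6KO replicate 3 had a macrophage marker sum of 1589 CPM, against 591 and 633 CPM in the other C6KO libraries and 2093 to 2433 CPM in WT. In BAT, WT replicate 2 had 105 CPM of B cell markers against 4.65 and 5.60 CPM in the other WT libraries, and 25218 CPM of skeletal muscle markers against 31.9 and 1171 CPM. In the comparisons of C6KO with WT, where leaving out one of these libraries changed a member's call or sign or moved its estimate by more than 1.5-fold, the value without it is given.

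The α chain genes of the β2 family lie together on chromosome 7 of the mm10 build, on the plus strand, Itgam at chr7:128062640-128118491, Itgax at chr7:128129550-128150657 and Itgad at chr7:128173946-128205503, with Itgal apart from them at chr7:127296260-127335137. Itgb2 lies at chr10:77530370-77565708, Itgb7 at chr15:102215995-102231935 on the minus strand, Itgae at chr11:73090583-73147449 and Itga4 at chr2:79255426-79333114. The last 120 bases before the RefSeq start of Itgam (GRCm38.p6, chr7:128062520-128062639, plus strand) and of Itgax (chr7:128129430-128129549, plus strand) are shown because these 2 neighbouring genes had the highest levels per length of the α chains in eWAT. Capitals mark GAGGAA, the core of the sites bound by the myeloid factor PU.1, and GGGCGG, the GC box bound by Sp1, on either strand, where the minus strand reads TTCCTC and CCGCCC.
Itgam: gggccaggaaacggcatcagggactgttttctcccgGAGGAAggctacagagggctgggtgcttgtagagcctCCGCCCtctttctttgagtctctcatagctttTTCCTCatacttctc
Itgax: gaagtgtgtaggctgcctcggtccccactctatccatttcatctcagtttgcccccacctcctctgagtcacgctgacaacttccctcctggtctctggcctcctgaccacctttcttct
In the 250 bases before the start, Itgam held GAGGAA 2 times, beginning 84 bases before the start on the plus strand and 15 bases before it on the minus strand, and GGGCGG once on the minus strand, at 47. Itgax and Itgb7 held neither, and Itga4 held GGGCGG once, 114 bases before its start. Of the 32851 RefSeq promoters of this length, 23.3% held GAGGAA and 32.7% held GGGCGG, so both words are common, and the motifs do not overlap each other in Itgam. The promoter table had entries for 4 of the 8 members, Itgam, Itgax, Itga4 and Itgb7.

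Itgax and Itgad are close relatives, and part of their coding sequence is identical. The longest identical run of their annotated transcripts was 188 bases, at positions 1274 to 1461 of the Itgax transcript and 1351 to 1538 of the Itgad transcript, within the coding sequence of both. It is printed because a read from it cannot be given to either gene.
Itgax and Itgad: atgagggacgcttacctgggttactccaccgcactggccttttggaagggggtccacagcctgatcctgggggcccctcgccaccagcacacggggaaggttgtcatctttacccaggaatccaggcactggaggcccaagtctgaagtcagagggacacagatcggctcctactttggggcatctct
Of all windows of 50 bases, 9.61% of those in Itgax were also present in Itgad, and 9.81% of those in Itgad in Itgax. The exons of Itgad also overlap genes on the opposite strand, by 388 bases for 4931431B13Rik and by 70 bases for Cox6a2, a muscle subunit of cytochrome c oxidase, and those of Itga4 overlap Cerkl by 1124 bases. No source used here says whether the counting used strand. An annotated read-through gene, Gm49368, covers 3450 bases of the Itgam exons and was not listed in the tables.

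The comparison of C6KO with WT asked which of these receptors changed in the fat of HFD-fed mice without caspase-6. In BAT, transcripts of Itgb2 and Itgax fell, 3.91-fold for Itgb2 and 8.98-fold for Itgax. Itgad, which could be tested there only through its reads in WT, was nearly absent from C6KO BAT. No member passed the test in iWAT or eWAT, although in iWAT 6 of the 8 members lay below WT in every C6KO library, against 12.2% of genes. Itgad in eWAT was the only member with an estimate above 0 in any depot.

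By count, 2 of the 7 members that passed the filter on low counts in both genotypes, Itgb2 and Itgax, were called lower in BAT and none higher, where a call needed a Benjamini-Hochberg adjusted p below 0.05 in edgeR's quasi-likelihood test and a change of at least 1.5-fold, and 1.07% of the 13595 genes tested in BAT were called lower. Itgad was called as well, but it passed the filter through the WT libraries alone, so that being tested at all was tied to its difference, and it is left out of that count. In iWAT 0 members were called against 0.0206% of 14533 genes called lower, and 6 members passed an unadjusted p of 0.05 together with the fold, all lower, against 6.72% of genes. In eWAT 0 members were called against 0.208% of 14889 genes called lower, and 1 member, Itga4, passed the unadjusted p with the fold, against 2.79% of genes. With DESeq2 5 members were called lower in iWAT, Itgam, Itgax, Itgad, Itga4 and Itgb7, against 3.53% of genes by the same tool. It called 1 lower in eWAT, Itga4, against 1.22% of genes, and in BAT it called Itgam besides Itgb2, Itgax and Itgad, against 2.62%. Without iWAT C6KO replicate 3 edgeR called 6 members lower in iWAT against 6.43% of genes, and the fit of all 18 libraries called 5 there against 1.94%. That library had the highest CPM of the iWAT C6KO libraries for every member, so leaving it out lowered each estimate. With another library left out instead, the highest iWAT estimates of these 6 ran from -2.11 for Itgad to -0.79 for Itga4, with Itgb2 at -1.21. The C6KO libraries did not overlap the WT libraries for 6 (iWAT), 4 (eWAT) and, Itgad aside, 4 (BAT) members, all with C6KO below WT, against 12.2%, 11.2% and 12.1% of all genes tested. In each depot 7 members reached the filter's minimum in every library of both genotypes, all but Itgae in the white depots and all but Itgad in BAT. Their median log2 change was -1.55 (iWAT), -0.49 (eWAT) and -1.42 (BAT), beside 0.03, -0.01 and -0.03 for all genes tested. With Itgae included, the median of the 8 members was -1.34 in iWAT and -0.51 in eWAT.

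**Figure D1:**
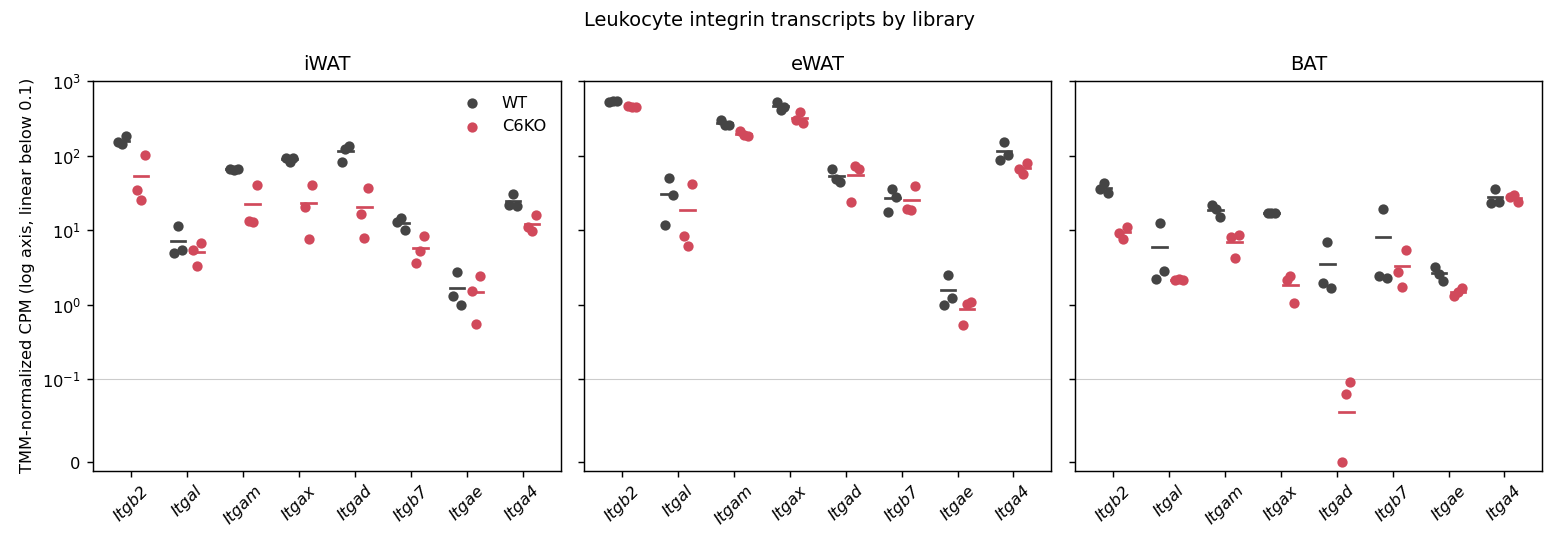
CPM of the 8 integrin subunit genes in each library, on a log axis that is linear below 0.1 (grey line), with WT in grey and C6KO in red, points for libraries and bars for group means (n = 3). In BAT the C6KO points of Itgax (1.07 to 2.40 CPM) and Itgad (0 to 0.0973 CPM) lie far below WT, while Itga4 overlaps.

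Itgb2 encodes the β chain that every β2 integrin needs to reach the cell surface. In BAT its level was 35.5, 42.7 and 31.1 CPM in WT and 9.22, 7.54 and 11.2 CPM in C6KO. The groups were well apart, and the log2 change was -1.97 ± 0.21 (SE, n = 3 and 3, adjusted p = 0.00463), or -1.83 without WT replicate 2 (adjusted p = 0.00428). In iWAT it stood at 151, 143 and 181 CPM in WT and at 34.3, 25.1 and 103 CPM in C6KO, where the third library lay nearer to WT than to its own group. The iWAT log2 change of -1.55 ± 0.51 had an adjusted p of 0.231, and without C6KO replicate 3 it was -2.44 with an adjusted p of 0.000175. The eWAT values were 521, 535 and 534 CPM in WT, with C6KO at 461, 449 and 447 CPM, a narrow gap with no overlap (log2 change -0.23 ± 0.10, adjusted p = 0.271).

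Itgam encodes αM, which with β2 forms the complement receptor CR3 of macrophages and neutrophils. Its iWAT level was 66.3, 64.1 and 66.7 CPM in WT and 13.4, 12.7 and 40.2 CPM in C6KO. C6KO replicate 3 again stood between the groups, and the log2 change was -1.57 ± 0.45 (adjusted p = 0.196), against -2.35 without that library (adjusted p = 7.9e-05). In eWAT Itgam was at 304, 261 and 259 CPM in WT and at 214, 190.1 and 184 CPM in C6KO. These groups did not overlap either, but the change of -0.49 ± 0.11 was below 1.5-fold and had an adjusted p of 0.0655. In BAT the WT libraries held 21.7, 19.2 and 15.2 CPM and the C6KO libraries 8.16, 4.22 and 8.66 CPM (log2 change -1.42 ± 0.29, adjusted p = 0.0559). This BAT value was past the threshold with DESeq2 (adjusted p = 0.00137), without the filter on low counts (0.024) and with at least 10 counts required in every library (0.0497).

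Itgax encodes αX, the CD11c chain of complement receptor CR4, carried by dendritic cells and by the macrophages of obese fat. In BAT it was at 17.1, 16.8 and 16.8 CPM in WT and at 2.13, 2.40 and 1.07 CPM in C6KO. No member was steadier within BAT WT than Itgax (SD 0.142 CPM around a mean of 16.9), and the log2 change of -3.17 ± 0.31 had an adjusted p of 0.00388, or 0.0026 without WT replicate 2. In iWAT the levels were 92.4, 83.4 and 91.6 CPM in WT and 20.4, 7.70 and 40.7 CPM in C6KO. The 3 C6KO libraries were spread over a wide range, all below WT, with a log2 change of -1.96 ± 0.53 (adjusted p = 0.183) and of -2.69 without C6KO replicate 3 (adjusted p = 0.00951). In eWAT Itgax stood at 526, 413 and 444 CPM in WT and at 299, 387 and 276 CPM in C6KO. The gap between the lowest WT and the highest C6KO library was small, the log2 change was -0.52 ± 0.15 (adjusted p = 0.114), and it was called only without C6KO replicate 2 (-0.67, adjusted p = 0.047) among the alternatives run.

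Itgad encodes αD, a β2 partner best known from tissue macrophages of the spleen which also binds VCAM-1. In BAT the WT libraries held 15, 78 and 17 reads of it, and the C6KO libraries 0, 1 and 1. Over the summed libraries this was 110 against 2 reads, a rate 59.0 times higher in WT with an exact 95% interval of 16.0 to 494 that covers counting error only. WT replicate 2 gave 78 of the 110 reads, and without it the rate was 28.3 times higher in WT (32 against 2 reads, interval 7.22 to 244). The fitted log2 change was -5.53 ± 0.90 over all libraries and -4.56 ± 0.84 without that library. The adjusted p was 0.0249. Because Itgad passed the filter on low counts through the WT libraries alone, this p and the call are not independent of the difference. The call was lost without any single C6KO library (adjusted p 0.101 to 0.122) and held without WT replicate 2 (0.0323). WT replicate 2 also had 3054 reads of Cox6a2, the muscle gene on the opposite strand of Itgad, against 5 and 63 in the other WT libraries and 36 to 326 in C6KO, and its part in the Itgad count was not tested. In the C6KO libraries with 321 and 326 reads of Cox6a2, Itgad had 0 and 1 reads.

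In iWAT Itgad was far more abundant, at 82.7, 124 and 136 CPM in WT and 16.2, 7.81 and 36.7 CPM in C6KO. All C6KO libraries lay below all WT libraries, and the estimate of -2.49 ± 0.54 was the lowest of the 8 members in this depot (adjusted p = 0.158; -3.27 and 0.00362 without C6KO replicate 3). The opposite-strand gene 4931431B13Rik moved with it, from 133 to 208 reads in iWAT WT to 17 to 41 reads in iWAT C6KO, and its part was not tested. In eWAT Itgad stood at 65.4, 48.6 and 44.2 CPM in WT and at 24.1, 73.6 and 66.9 CPM in C6KO, so that C6KO libraries lay on both sides of WT. The eWAT log2 change was 0.06 ± 0.44 (adjusted p = 0.966).

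Itgal encodes αL, the LFA-1 chain of lymphocytes. In eWAT it was at 11.7, 50.1 and 30.0 CPM in WT and at 8.41, 6.06 and 42.0 CPM in C6KO. The libraries of both genotypes were spread over the same range, with the high ones also high in B and T cell markers. B cell markers were at 104 and 237 CPM in WT replicates 2 and 3 and 313 CPM in C6KO replicate 3, against 28.7 to 38.8 CPM in the other 3 eWAT libraries. T cell markers in the same libraries, in that order, were at 111, 52.6 and 68.6 CPM, against 11.8 to 27.4 CPM. The part of these cells in the Itgal level was not tested. In BAT Itgal stood at 2.20, 12.6 and 2.80 CPM in WT and at 2.13, 2.24 and 2.14 CPM in C6KO. The log2 change of -1.44 ± 0.65 (adjusted p = 0.394) was -0.20 without WT replicate 2 (adjusted p = 0.873), the library high in B and T cell markers. In iWAT the groups overlapped, with 4.95 to 11.3 CPM in WT and 3.28 to 6.74 CPM in C6KO (log2 change -0.50 ± 0.39, adjusted p = 0.556; -0.76 and 0.307 without C6KO replicate 3).

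Itgb7 encodes the β7 chain of gut-homing lymphocytes, which mast cell precursors also carry. In iWAT its level was 12.96, 14.5 and 9.95 CPM in WT and 3.59, 5.24 and 8.32 CPM in C6KO. The groups did not overlap, and the log2 change of -1.12 ± 0.31 had an adjusted p of 0.168, or of 0.0106 without C6KO replicate 3 (-1.52). In eWAT Itgb7 stood at 17.8, 35.8 and 28.0 CPM in WT and 19.2, 18.5 and 38.9 CPM in C6KO, fully overlapping. In BAT the WT replicates 1 and 3 lay at 2.46 and 2.30 CPM and WT replicate 2 at 19.4 CPM, while C6KO libraries were at 2.72, 1.74 and 5.35 CPM. The sign of the BAT estimate rested on that WT library, with -1.31 ± 1.01 over all libraries and 0.46 without it (adjusted p = 0.663 and 0.740).

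Itgae encodes αE, the CD103 chain of tissue-resident T cells and of some dendritic cells. It was the least abundant member per length in both white depots, with 9 to 47 reads per library over the 3 depots. In BAT the WT libraries were at 3.23, 2.56 and 2.10 CPM and the C6KO libraries at 1.30, 1.49 and 1.66 CPM. These did not overlap, with a log2 change of -0.81 ± 0.37 and an adjusted p of 0.393. In iWAT and eWAT the groups overlapped (log2 change -0.17 ± 0.62 and -0.83 ± 0.50, adjusted p = 0.915 and 0.444). In both of these depots 3 WT libraries and 2 C6KO libraries reached the minimum of the filter on low counts. The iWAT estimate was -0.73 without C6KO replicate 3 (adjusted p = 0.540).

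Itga4 encodes α4, which pairs with β7 or β1 and is carried by lymphocytes, monocytes and eosinophils. In eWAT it was at 87.7, 151 and 103 CPM in WT and at 66.9, 56.5 and 79.6 CPM in C6KO. Every C6KO library was below WT, with a log2 change of -0.75 ± 0.21 (adjusted p = 0.121, and 0.00908 with DESeq2). In iWAT the levels were 21.7, 30.4 and 21.0 CPM in WT and 11.04, 9.78 and 16.1 CPM in C6KO, again with no overlap (log2 change -0.99 ± 0.23, adjusted p = 0.154). The standard error was the smallest of the 8 members in iWAT, and C6KO replicate 3 was again the highest of its group. Without that library the iWAT change was -1.25 ± 0.21 and was called (adjusted p = 0.00829). In BAT the groups overlapped, at 22.9, 36.2 and 23.9 CPM in WT and 27.7, 29.7 and 23.6 CPM in C6KO (log2 change -0.04 ± 0.21, adjusted p = 0.958; 0.21 without WT replicate 2). Its other partner, Itgb1, was called in no depot, with log2 changes of 0.10 ± 0.16 (iWAT), 0.10 ± 0.12 (eWAT) and -0.26 ± 0.16 (BAT).

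**Figure D2:**
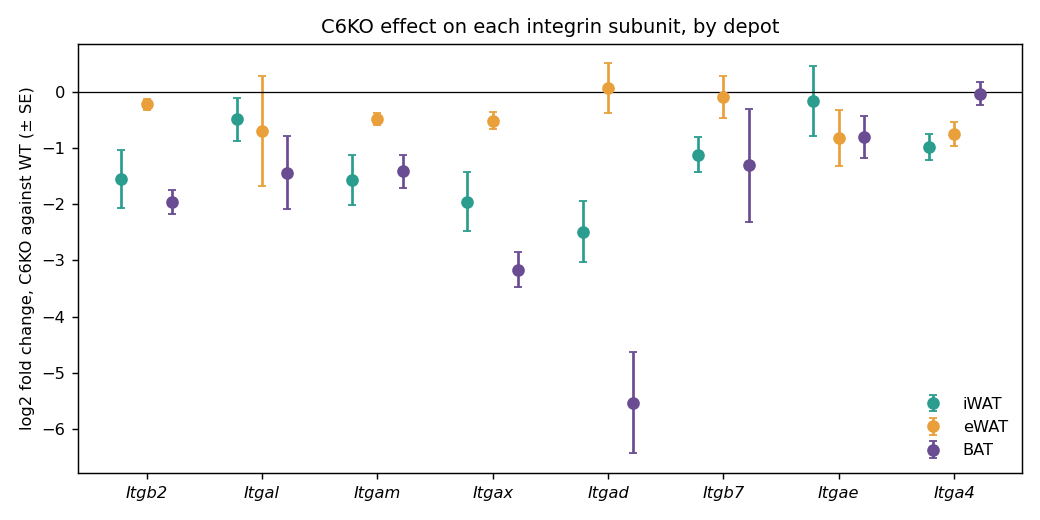
Log2 fold change of C6KO against WT for each integrin subunit gene, with points for the edgeR estimate in iWAT (green), eWAT (orange) and BAT (purple) and bars for the standard error (n = 3 and 3). Itgad spans the widest range, from 0.06 in eWAT through -2.49 in iWAT to -5.53 in BAT, where the C6KO libraries held 0 to 1 reads and the fitted value depends on the small count added by the fit.

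Whether the effect of C6KO differed between depots was tested as an interaction in a single fit of all 18 libraries, in which 2 contrasts always share the libraries of a depot. No member passed in any of the 3 contrasts, where 0% of 15866 genes were called for eWAT against iWAT, 0.183% for BAT against iWAT and 0.536% for BAT against eWAT. At an unadjusted p of 0.05 with the fold, 4 members had a higher estimate of the C6KO effect in eWAT than in iWAT (difference of log2 changes for Itgad 2.55 ± 0.76, Itgax 1.43 ± 0.53, Itgb2 1.32 ± 0.50 and Itgam 1.08 ± 0.48, adjusted p 0.890 to 0.902), against 3.02% of genes. The difference passed the test for none of them over all libraries. Without iWAT C6KO replicate 3 these 4 were called, with adjusted p from 0.00019 for Itgb2 to 0.0364 for Itgad, against 1.41% of genes called higher in that fit. Between BAT and eWAT the difference was -2.65 ± 0.61 for Itgax (adjusted p = 0.0748), -1.74 ± 0.52 for Itgb2 (0.174) and -5.70 ± 1.52 for Itgad (0.127), 3 members lower at the unadjusted p against 6.79% of genes. DESeq2 called these 3, against 2.03% of genes by that tool, and the Itgad difference was -4.74 without BAT WT replicate 2 (edgeR, adjusted p = 0.274). Itga4 was the member on the other side, with 0.71 ± 0.33 for BAT against eWAT and 0.95 ± 0.33 for BAT against iWAT (adjusted p = 0.423 and 0.339), against 1.88% and 2.87% of genes higher at the unadjusted p with the fold.

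Set against each other within a library, the α chains that accompany Itgb2 differed between depots. Counts divided by transcript length were summed over Itgal, Itgam, Itgax and Itgad, and each gene's share was taken. In WT iWAT Itgad made up 35.5% to 47.4% and Itgax 30.5% to 38.9%, whereas in WT eWAT Itgax made up 56.9% to 60.9% and Itgad 6.13% to 7.72%. In WT BAT Itgam (33.0% to 47.5%) and Itgax (33.6% to 49.7%) overlapped. The C6KO libraries of BAT had 10.4% to 30.6% of Itgax and 46.4% to 72.6% of Itgam, with Itgad at 0% to 1.08% against 5.01% to 13.98% in WT. In C6KO iWAT the share of Itgad was 27.3% to 31.7%, below every WT library, and that of Itgal was 4.41% to 8.68% against 1.46% to 3.18%.

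**Figure D3:**
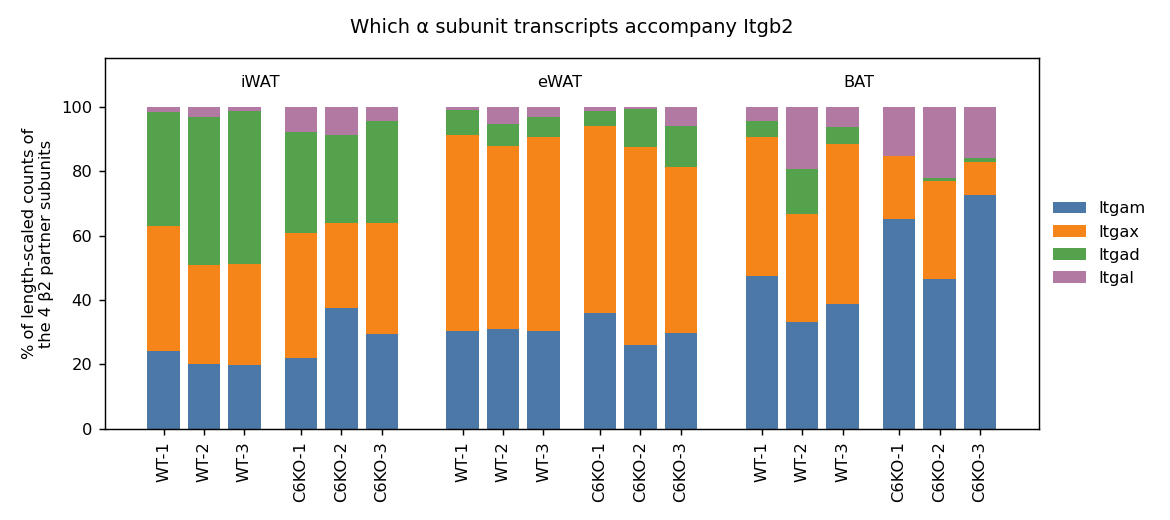
Share of each α chain in the length-scaled counts of the 4 β2 partner genes, stacked to 100% for each of the 18 libraries. Itgax (orange) is the largest share in every eWAT library and Itgam (blue) in every C6KO library of BAT (46.4% to 72.6%), while in iWAT Itgad (green) is the largest only in WT replicates 2 and 3 (46.1% and 47.4%).

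Ratios within a library do not depend on how the library is scaled, and 27 of them were compared between genotypes by an exact two-sided permutation test, which with 3 against 3 libraries cannot go below 0.1. The ratio of Itgad to Itgb2 was 0.530 times the WT value in C6KO iWAT (geometric means 0.273 against 0.514), and the ratio of Itgax to Itgb2 was 0.419 times the WT value in C6KO BAT (0.140 against 0.333). Neither pair of groups overlapped, so both reached the smallest exact p of 0.1 (adjusted 0.338 over the 27 ratios). The exact p was also 0.1 for Itgad to Itgb2 in BAT (0.138 times the WT value, on 0 to 1 reads in C6KO). The same held for Itga4 to Itgb7 in eWAT (0.657 times) and for Itgb7 to the T cell markers in BAT (2.04 times). The ratio of Itgam to Itgb2 was 1.02 times the WT value in iWAT (exact p = 0.8), 0.835 times in eWAT (exact p = 0.1) and 1.42 times in BAT (exact p = 0.2). The 4 partners together came to 0.750 to 1.20 times Itgb2 as geometric means of a group, and this ratio in C6KO was 0.752 times the WT value in iWAT, with no overlap (exact p = 0.1, adjusted 0.338). It was 0.846 times in eWAT (exact p = 0.3) and 0.935 times in BAT (exact p = 0.5), both with overlapping groups.

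Markers of the cells that carry these receptors were summed in each library. The 12 macrophage markers, none at 0 in any group, summed to 591 to 1589 CPM in C6KO against 2093 to 2433 CPM in WT for iWAT, 4708 to 6409 against 7651 to 10018 CPM for eWAT, and 337 to 504 against 825 to 1079 CPM for BAT. The C6KO sums were below the WT sums in all 3 depots, as was Itgb2. Of the 12 markers, 0 (iWAT), 0 (eWAT) and 4 (BAT) were called lower, against 0.0206%, 0.208% and 1.07% of genes. Estimates were below 0 for 12, 11 and 10 of them. Above 0 were Mertk in eWAT (0.02) and Mertk (0.32) and Cd163 (0.52) in BAT. Relative to the macrophage sum, Itgb2 of C6KO was 0.784 times the WT value in iWAT (exact p = 0.2). The same ratio was 1.30 for eWAT (exact p = 0.2) and 0.611 for BAT (exact p = 0.1), and in BAT the libraries of the 2 genotypes did not overlap. Neutrophil markers were sparse, with sums of 3.97 to 38.9 CPM and Ly6g at 0 in every group, although this cell type also carries CD11b. The dendritic list, taken without Itgax, summed to 25.9 to 34.4 CPM in WT and 27.1 to 33.3 CPM in C6KO iWAT and to 20.2 to 28.0 against 20.6 to 22.6 CPM in BAT, overlapping in both depots. With Itgax counted, 6 of the 8 dendritic genes had iWAT estimates below 0, and Zbtb46 (0.52) and Cd209a (0.32) lay above. Only 4 of the 8 were tested in BAT, Itgax among them. Mast cell markers in eWAT were at 239 to 351 CPM in WT and 116 to 171 CPM in C6KO, while Itgb7 overlapped there. Eosinophil markers in BAT were at 0.881 to 1.70 CPM in WT and 0 to 0.195 CPM in C6KO, and 0 of the 4 had enough reads to be tested there. T cell markers in BAT were at 6.33 to 56.4 against 2.90 to 6.33 CPM, with the highest sum in WT replicate 2. Adipocyte and endothelial markers were summed in the same way. The 6 adipocyte markers, none at 0 in any group, summed to 21042 to 24590 CPM in WT and 27895 to 29624 CPM in C6KO for iWAT, and to 9342 to 11148 against 12818 to 16669 CPM for eWAT, with C6KO above WT and no overlap in both. In BAT the sums overlapped, at 16845 to 30254 CPM in WT and 20412 to 21686 CPM in C6KO. There 1 of the 6 adipocyte markers, Lep, was called lower (log2 change -3.35 ± 0.41, adjusted p = 0.0146), against 1.07% of genes. The most abundant genes weigh most in a sum, and in iWAT 2 of the 6, Lep and Ucp1, had estimates below 0, against 0 of 6 in eWAT. The sum of the 4 endothelial markers was higher in every C6KO library of eWAT (659 to 832 against 481 to 540 CPM) and BAT (981 to 985 against 711 to 877 CPM) and overlapped in iWAT. By gene, 0 of the 4 were called in any depot. The part of these cells in the integrin levels was not tested.

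**Figure D4:**
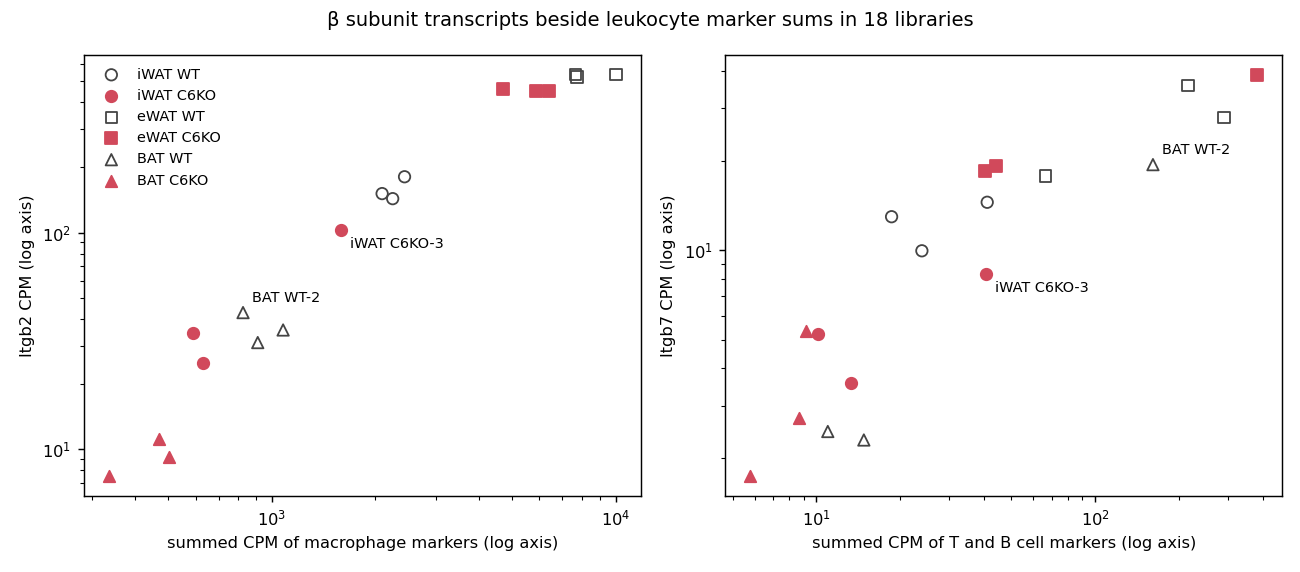
Left, CPM of Itgb2 against the summed CPM of 12 macrophage markers, and right, CPM of Itgb7 against the summed CPM of T and B cell markers, in 18 libraries on log axes, with WT open, C6KO red, and circles, squares and triangles for iWAT, eWAT and BAT. The iWAT C6KO replicate 3 (1589 CPM of macrophage markers) lies between its group and WT, and BAT WT replicate 2 lies far to the right of the other BAT libraries in the right panel. The points share depth and scaling, and no test was run on them.

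Among WT mice, the comparison of depots showed where each integrin is most abundant, on the scale of CPM per kilobase of transcript (RPKM) in a joint normalization. Itgb2 was highest in eWAT at 167, 168 and 169 RPKM, followed by iWAT at 53.3, 50.9 and 63.8 and BAT at 14.1, 15.9 and 11.99 RPKM. Itgam and Itgax had the same order, with Itgax at 92.7 to 120.1 RPKM in eWAT, 21.1 to 23.2 in iWAT and 4.45 to 4.81 in BAT, and Itgam at 50.5 to 60.0, 13.97 to 14.5 and 3.60 to 5.28 RPKM. Itgad broke it, with 21.2, 31.9 and 34.8 RPKM in iWAT, above the 15.2, 11.1 and 10.2 RPKM of eWAT and the 0.557, 1.86 and 0.476 RPKM of BAT. Its iWAT libraries all lay above its eWAT libraries, but the log2 difference of -1.26 ± 0.53 for eWAT against iWAT did not pass (adjusted p = 0.0843).

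By test, 4 of 8 members were called higher in WT eWAT than in WT iWAT, Itgax (2.22 ± 0.39 on the log2 scale), Itga4 (2.07 ± 0.24), Itgam (1.91 ± 0.35) and Itgb2 (1.59 ± 0.36), against 12.8% of all 15866 genes called higher. In WT BAT against WT iWAT 4 members were called lower, Itgam, Itgax, Itgad and Itgb2, against 18.7% of genes, with log2 differences of -1.69 ± 0.36 for Itgam and -4.87 ± 0.65 for Itgad (-5.83 without BAT WT replicate 2). In WT BAT against WT eWAT 6 were called lower, all but Itgb7 and Itgae, against 23.6% of genes, from -1.77 ± 0.24 for Itga4 to -4.50 ± 0.44 for Itgax. The 3 comparisons share libraries in pairs. The BAT level of Itga4 (2.64 to 3.92 RPKM) overlapped its iWAT level (2.16 to 3.14 RPKM), with a log2 difference of 0.30 ± 0.23 (adjusted p = 0.307). Without BAT WT replicate 2 Itgb7 was also called lower in BAT, by log2 differences of -2.25 against iWAT and -3.22 against eWAT, while the Itgal difference between BAT and eWAT (-2.10 ± 0.78, adjusted p = 0.0328) was lost without eWAT WT replicate 2 or 3 or BAT WT replicate 1 or 3 (adjusted p 0.0565 to 0.129) and was -3.30 without BAT WT replicate 2 (adjusted p = 0.00634). Itgae was lowest of the members per length in WT iWAT (0.264 to 0.733 RPKM) and eWAT (0.241 to 0.593 RPKM) and was at 0.606 to 0.957 RPKM in BAT, given as values because the eWAT table counted it on another transcript (3812 bases, against 3815).

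**Figure D5:**
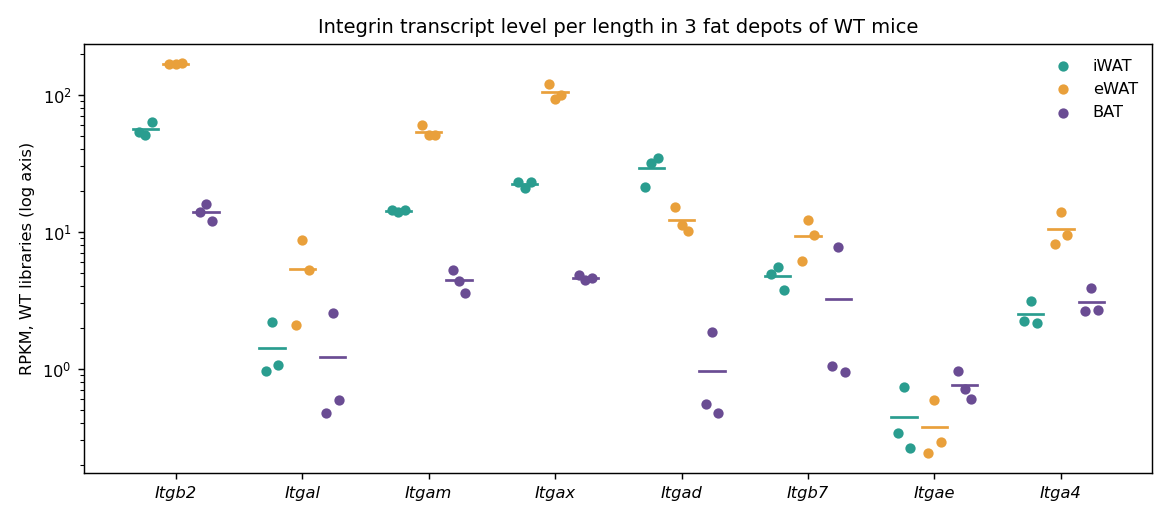
RPKM of each integrin subunit gene in WT libraries of iWAT (green), eWAT (orange) and BAT (purple) on a log axis, with bars for the mean of 3 libraries. Itgb2, Itgam and Itgax run eWAT, iWAT, BAT from high to low, while Itgad is highest in iWAT (21.2 to 34.8 RPKM).

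Ligands, activators and other integrins were read from 3 lists. Of 25 genes that carry signals to and from leukocyte integrins, 4 of the 24 tested were called lower in BAT, Tyrobp (-1.79 ± 0.24), the adaptor that signals with β2 integrins through Syk, Apbb1ip (-1.74 ± 0.28), the RIAM protein that brings talin to the integrin tail, Coro1a (-2.02 ± 0.34), an actin regulator of leukocytes, and Fyb (-1.59 ± 0.31), the ADAP adaptor of T cells and myeloid cells. This was 4 of 24 against 1.07% of genes, and the list median was -1.05. Dropping any 1 of the C6KO libraries left 0 of these calls, and 13 passed the unadjusted p with the fold, all lower, against 6.27% of genes. In eWAT Fyb was called lower (-0.87 ± 0.12) against 0.208% of genes, with 0 genes of the list called without any 1 WT library or C6KO replicate 1. In iWAT none was called, with 11 of 25 lower at the unadjusted p with the fold against 6.72% of genes, led by Rassf5 (-0.94 ± 0.22), the RAPL protein of LFA-1 activation, and Fyb (-1.85 ± 0.41).

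Of 16 integrin ligands, 10 were tested in BAT and C3, the complement protein whose fragment iC3b binds CR3 and CR4, was called higher (1.09 ± 0.19, adjusted p = 0.0306) against 0.169% of genes, although the call was lost without any C6KO library or WT replicate 1 or 3. The C6KO effect on C3 differed between BAT and iWAT (1.90 ± 0.31, adjusted p = 0.0122) and between BAT and eWAT (1.53 ± 0.31, adjusted p = 0.034). In eWAT the fibrinogen gene Fga was called higher (3.61 ± 0.65, adjusted p = 0.0468) against 0.537% of genes, while the 5 liver markers in the same libraries summed to 28.0 to 77.5 CPM in C6KO and 7.10 to 13.9 CPM in WT, whose part was not tested. No ligand was called in eWAT without any 1 library other than C6KO replicate 2. In iWAT no ligand was called, and Madcam1 (3.34 ± 0.59, adjusted p = 0.121) and Fn1 (-0.79 ± 0.15, adjusted p = 0.144) had the smallest p. Of 19 integrin genes outside the leukocyte set, 0 were called by edgeR in any depot, with 2 of 16 (iWAT), 1 of 16 (eWAT) and 1 of 17 (BAT) lower at the unadjusted p with the fold, against 6.72%, 2.79% and 6.27% of genes. A further 2 were higher in eWAT by the same rule, against 4.2% of genes. Their medians were -0.18, 0.05 and -0.20.

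Between WT depots the same lists were read beside the members. Of the 25 signalling genes, 16 were called higher and 1 lower in eWAT against iWAT, beside 12.8% and 12.9% of all genes, with a median of 1.59 and with Skap2 (1.19 ± 0.12), Apbb1ip (1.89 ± 0.21), the Src-family kinase Lyn (0.97 ± 0.12) and the GTPase Rap1b (1.03 ± 0.14) at the smallest p. In BAT 12 were called lower and 1 higher against iWAT (18.7% and 20.1% of all genes), and 20 lower and 2 higher against eWAT (23.6% and 25% of all genes). Among the 14 ligands tested, C3 (2.04 ± 0.23), the matrix protein gene Fn1 (2.07 ± 0.27) and Icam1 (0.82 ± 0.20) were called higher and F11r (-1.14 ± 0.17) was among 2 called lower in eWAT against iWAT. Of the 17 other integrins tested, 4 were called higher, among them Itgav (1.16 ± 0.13), Itga9 (1.22 ± 0.17) and Itga5 (0.96 ± 0.14), and 3 lower, among them the muscle laminin receptor chain Itga7 (-1.43 ± 0.19).

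The genes most like each member were found by the root-mean-square difference of log2 CPM, centred on the mean of each depot, over 18 libraries and 14208 candidate genes. Itgb2 was nearest to Lcp1 (0.156 log2 units), Spi1 (0.190) and Cd68 (0.194), and Itgam to Plek (0.170), Spi1 (0.176) and Tnfrsf11a (0.184), against their own spreads of 0.869 and 0.784. Spi1, which encodes PU.1, was thus on both lists, and Itgam differed from Itgb2 by 0.238. Itgax was nearest to Tnip3 (0.350), Lilr4b (0.354) and Adam8 (0.398), and Itgad to Atp6v0d2 (0.657), Il7r (0.693) and Mmp12 (0.730). The distances of Itgad are large beside those of Itgb2, as is its own spread of 1.71. For Itgal the nearest were Sept1, Stat4 and Acap1 (0.308 to 0.352), for Itgb7 Dpp4, Ppm1j and Mef2c (0.365 to 0.390), for Itgae Cd40, Gsap and Tmem51 (0.314 to 0.347), and for Itga4 Prex1, Tbc1d8 and Gmip (0.207 to 0.223). The measure holds the genotype effect as well as the spread within groups.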

How the data were processed

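Poly(A) RNA of each depot was sequenced, and the authors mapped the reads to mm10 with STAR and counted them over exons with HOMER, keeping 1 transcript per gene. Versions and the strand setting are not given in the sources used here. The deposited files hold raw counts and the transcript length for 25124 genes in each of the 3 depots, with no value column left unmapped. The labels call the libraries biological replicates but do not tie libraries of different depots to an animal, and p-values measure the spread between these libraries. No 2 libraries of a group agreed within sampling noise.

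Counts were analysed in R 4.3.3 with edgeR 4.0.16 (filterByExpr, TMM, robust quasi-likelihood test, Benjamini-Hochberg adjustment over all genes tested), per depot for C6KO against WT and in a fit of all 18 libraries for depots and interactions. A call needed an adjusted p below 0.05 and a 1.5-fold change. The fit was tested on simulated data, where it recovered 99.5% of 200 genes changed by 2 log2 units among 13706 genes of BAT. Of its calls there, 4.33% were false. The simulated spread between libraries was below that estimated for BAT (biological coefficient of variation 0.32). Genes with few reads were not among those changed, so the recovered share does not apply to members with few reads. DESeq2 1.42.0, other scalings and filters, a replicate block and leaving out each library were alternatives. CPM used each depot's own TMM scaling and RPKM the joint one. For 2619 genes the tables keep different transcripts. Ratios used scipy 1.17.1. The members, gene lists and tests were chosen with earlier results of these data known. Every member is named in each comparison of C6KO with WT. Of each list, genes called (at most 4 by smallest p) or else the 2 with the smallest p are named, and for each member the 3 nearest genes, if they averaged 1 CPM or more.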

Additional observations from a re-analysis of the deposited data

Results flagged for a closer look

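C3, a ligand of the receptors with αM and αX, had a C6KO effect that differed between depots by the interaction in the fit of all 18 libraries. The difference of log2 changes was 1.90 ± 0.31 for BAT against iWAT (edgeR, adjusted p = 0.0122) and 1.53 ± 0.31 for BAT against eWAT (adjusted p = 0.0340), and both contrasts share the BAT libraries.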

How the results depend on the processing

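Depot differences of the C6KO effect that missed the unadjusted p with the fold were left out of the member tally and ranges here. Of the other log2 changes of members over the alternatives run, 723 kept their direction and side of the threshold, 37 gained the call, 8 lost it and 16 changed sign. In iWAT 5 members were called with DESeq2 and 5 in the fit of all 18 libraries, against 0, beside 3.53% and 1.94% of all genes called lower. DESeq2 called 1 member in eWAT and 3 for the effect in BAT against eWAT, against 0, beside 1.22% and 2.03% of all genes called lower. Leaving out 1 library gave 0 to 6 members for iWAT (6 without C6KO replicate 3), 0 to 1 for eWAT (1 without C6KO replicate 2) and 2 to 3 for BAT (Itgad counted), then 4 to 5, 4 to 5 and 5 to 7 in WT eWAT against iWAT, BAT against iWAT and BAT against eWAT, 0 to 4 for the effect in eWAT against iWAT (4 without iWAT C6KO replicate 3), and 0 to 0 for the other depot differences of the effect. Of the counts without 1 library, a share of all genes is given only for iWAT and for eWAT against iWAT, each without iWAT C6KO replicate 3. The other such counts are no result about the members. The causes were not tested. Leaving out libraries for the ratios and the Itgad read rate, and all alternatives for the lists, were chosen after seeing the data.

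For the signalling list, iWAT, eWAT and BAT gave 7, 2 and 9 calls with DESeq2, 4, 0 and 7 in the fit of all 18 libraries, and 0 to 10, 0 to 2 and 0 to 3 without 1 library, against 0, 1 and 4. These list counts hold both directions. Of all genes, DESeq2 called 3.53%, 1.22% and 2.62% lower in the 3 depots, and the fit of all 18 libraries 1.94% in iWAT. For the other settings of the lists no share of all genes is given, so those counts are no result about the lists. For the ligand list, DESeq2 called 3 in iWAT and 2 in eWAT, where no fold minimum gave 2, no filter on low counts 2, total counts only 0, at least 10 counts in every library 0 and the fit of all 18 libraries 0. Leaving out 1 library gave 0 to 3, 0 to 1 and 0 to 1 ligands in iWAT, eWAT and BAT, and 0 other integrins in all.

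Same-numbered libraries of WT and C6KO had correlated deviations of 0.022 to 0.037 (iWAT), -0.104 to 0.161 (eWAT) and -0.603 to -0.244 (BAT), and depots of a genotype -0.065 to 0.219. Between eWAT and iWAT the mean for same numbers was 0.118 (WT) and 0.0736 (C6KO), against -0.0589 and -0.0365 for other numbers. Between BAT and eWAT of C6KO it was -0.00198 against 0.000803. Whether depots share animals could not be told from these values, and the main fits did not pair the libraries. With the replicate block the members called stayed at 0, 0 and 3 for iWAT, eWAT and BAT, Itgad counted. No share of all genes is given for the block, so its counts are no result about the members or the lists. The block gave 1, 3 and 1 signalling genes, 1 other integrin in eWAT and 0 ligands in BAT, and a log2 change of -0.046 for Itgad in eWAT. In the WT depot comparisons it added Itgal (1.82, eWAT against iWAT) and Itgb7 (-1.87, BAT against eWAT).

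Changes of sign without 1 library gave ranges of -0.73 to 0.38 for Itgae in iWAT, -0.20 to 0.42 for Itgad and -0.53 to 0.16 for Itgb7 in eWAT, -0.12 to 0.21 for Itga4 and -1.87 to 0.46 for Itgb7 in BAT, -0.74 to 0.30 for Itgae in WT eWAT against iWAT and -1.38 to 0.29 for Itgal in WT BAT against iWAT. Among log2 ratios they were -0.090 to 0.10 for Itgam to Itgb2 and -0.040 to 0.32 for Itga4 to Itgb7 in iWAT, -0.15 to 0.68 for Itgad to Itgb2 in eWAT, and -1.10 to 0.54 for Itgae to Itgb7 and -0.10 to 1.21 for Itga4 to Itgb7 in BAT. The Itgad to Itgb2 ratio in BAT has no value with no count added, since a C6KO library is at 0, and Itgad was not tested in BAT with at least 10 counts in every library. In BAT Itgad rested on 0 to 78 reads per library and Itgae on 11 to 29, and what a greater depth would show was not tested.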
